A study of Mus musculus with 229 samples.

Results

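The immediate early and heat shock genes are 36 mouse genes taken as a list by name: 24 immediate early genes and 12 heat shock genes. They are part of the 32456 gene symbols that the droplet tables hold between them. No measured value entered the choice of members, and the list was drawn up with earlier results of these data known. By role they fall into 7 AP-1 and ATF factors, 9 other transcription factors of the immediate early class, 8 early response regulators and feedback inhibitors, 7 stress-inducible chaperones and 5 housekeeping or organelle chaperones. All members are in the tables of 3 droplet libraries, and 35 of 36 were analysed in the PDGFRa-GFP library, where Egr3 was not analysed.

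The study profiled single cells of mouse glioblastoma and of neonatal mouse cortex. A 10x library came from tumour tissue labelled dpi35 and a Drop-seq library from tumour tissue labelled dpi25; the labels do not expand dpi, and for both tumours they give neither a driver mutation nor the animals' age. A Drop-seq library of PDGFRa-GFP pups covered postnatal days 1 to 3, and one of hGFAP-GFP pups covered postnatal days 5 to 6. The C1 platform, which captures cells in separate chambers, gave PDGFRa-GFP cells of P6 (53 cells) and P3 (60 cells), and hGFAP-GFP cells of P4/P6 (61 cells) and P3 (49 cells). All pups carried a GFP reporter, named after the receptor PDGFRa of oligodendrocyte precursors or after the human astrocyte gene GFAP, with genes otherwise called normal. The C1 cells titled as PDGFRa carry hGFAP-gfp in their strain field, and the titles were followed. Cortex was loosened with TrypLE in an incubator, and living GFP-positive cells were sorted with the dye 7-AAD. Tumours were digested with TrypLE and collagenase and depleted of red blood cells, with no sort given. Every cell was therefore taken from tissue by enzyme before its RNA was read, so a level present in the tissue and a response to dissociation cannot be told apart. Each group is 1 library or 1 set of cells with no animals named. No test between groups was possible, and a gene was called when its level differed by more than 2-fold.

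Immediate early genes are switched on within minutes of a stimulus without any need for new protein. Their products include the AP-1 factors of the Fos and Jun families, the zinc finger factors of the Egr and Klf families and the Nr4a nuclear receptors. Others among them, such as the Dusp phosphatases and Socs3, shut the same signals down again. In brain tissue they follow neuronal activity, growth factors and injury, and enzymatic dissociation of tissue is known to switch them on, also in microglia. Heat shock genes encode chaperones that hold or refold proteins. The transcription factor HSF1 drives the inducible ones through heat shock elements in their promoters, while others are made at all times. Hspa5, the chaperone of the endoplasmic reticulum, follows the unfolded protein response instead.

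The promoters of the members carried different letters for these inputs. Promoter sequence from RefSeq (build GRCm38.p6) was found for 29 of 36 members, and the 250 bases before each start were searched on both strands. Egr1, Egr3, Ier2, Myc, Hsp90aa1, Hsp90ab1 and Hspa8 had no such sequence and were not searched. A heat shock element of a facing pair of units, GAANNTTC or TTCNNGAA, stood before 7 of 9 heat shock members (77.8%). It stood before 3 of 20 immediate early members (15%), namely Fosl2, Jun and Egr2, and before 14.55% of 27025 genes. The windows that hold these elements are shown because the heat shock members set 1 tumour cluster apart below, where Dnajb1, with no such element in its window, was among the higher ones too. Capitals mark the motif, and each sequence is written 5′ to 3′ on the gene's strand.
Hspa1a, chr17:34972241-34972272, minus strand: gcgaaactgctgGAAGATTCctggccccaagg
Hspa1b, chr17:34959323-34959354, minus strand: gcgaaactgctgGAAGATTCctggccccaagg
Hspb1, chr5:135887790-135887841, plus strand: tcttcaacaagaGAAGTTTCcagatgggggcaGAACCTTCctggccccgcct
Hsph1, chr5:149636350-149636381, minus strand: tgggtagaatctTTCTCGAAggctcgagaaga
Dnaja1, chr4:40722332-40722363, plus strand: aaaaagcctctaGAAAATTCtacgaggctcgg
Hspe1, chr1:55088047-55088088, plus strand: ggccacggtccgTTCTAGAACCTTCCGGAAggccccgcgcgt
The window of Hspe1 lies in the shared promoter of Hspd1, which is read in the other direction. It held a run of 3 or more facing units, a form found before 0.514% of all genes. The windows of Hspa1a and Hspa1b are letter for letter the same, and these neighbouring genes are near-identical copies, so the split of reads between them is uncertain.

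Other members held other motifs, shown for contrast with the heat shock elements. The cAMP response element TGACGTCA stood before Dusp1 and Btg2, 2 of 20 immediate early members (10%), against 1.77% of all genes. The CArG box, the site of the serum response factor, stood before Egr2 among the members searched and before 1.62% of all genes. Egr1 was not among those searched. The endoplasmic reticulum stress element stood before Hspa5, against 0.130% of all genes.
Dusp1, chr17:26508596-26508627, minus strand: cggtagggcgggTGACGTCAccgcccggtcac
Btg2, chr1:134079302-134079333, minus strand: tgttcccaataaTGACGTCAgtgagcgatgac
Egr2, chr10:67537785-67537818, plus strand: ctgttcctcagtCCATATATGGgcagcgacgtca
Hspa5, chr2:34772013-34772055, plus strand: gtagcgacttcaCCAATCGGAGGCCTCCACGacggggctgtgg
The AP-1 site TGANTCA was in none of the 20 immediate early windows, in that of Hspa5 and in 7.82% of all. A missing match says only that these letters are not in these windows. The authors' pooled list of open chromatin peaks came from sorted cortex cells titled PDGFRa-GFP, of E14.5 and P5. A peak in it covered part of the window of 8 of 9 heat shock members and 19 of 20 immediate early members. Of all genes, 44.5% had such a peak. The members without a peak were Hspb1 and Jund.

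Depth differed between the droplet libraries. The dpi35 library held 6054 cells with a median of 6582 UMIs (counted molecules), dpi25 held 4955 cells with 2063, PDGFRa-GFP held 3184 with 2013.5 and hGFAP-GFP held 815 with 4167. Immediate early members took 0.283% of all UMIs in dpi35, 0.137% in dpi25, 0.195% in PDGFRa-GFP and 0.199% in hGFAP-GFP. Heat shock members took 0.535%, 0.638%, 0.757% and 0.927% in the same order of libraries. No cell barcode was shared between any pair of libraries. Levels below are given as CPM, the UMIs of a gene scaled to a common total of the library or class. The 95% intervals in brackets are exact ones for the counting of UMIs, or of cells for shares, and do not hold the spread between animals. Those of levels and ratios do not hold the spread between cells either.

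**Figure D1:**
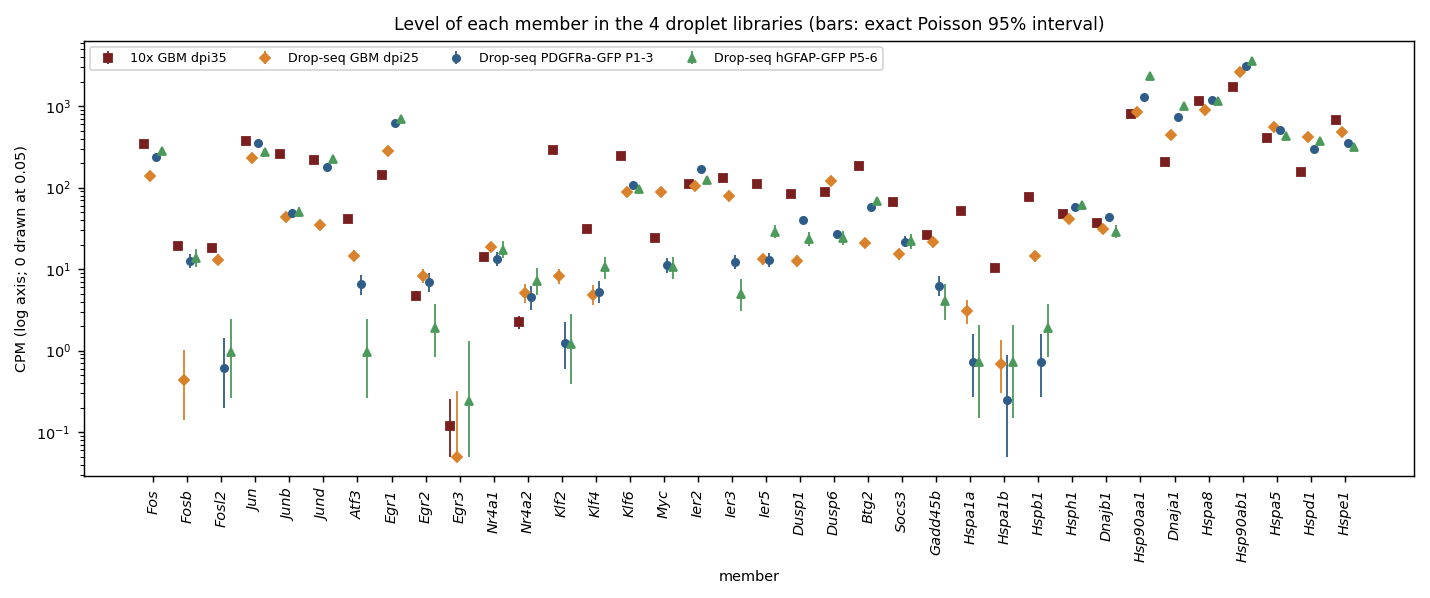
Level of each member (CPM, log axis) in the 4 droplet libraries, with members grouped by role and a level of 0 drawn at 0.05. Klf2, Fosb, Hspa1a and Hspb1 spread widest between the libraries, while Hspa8 lay between 893 and 1184 CPM.

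Among the AP-1 and ATF factors, Fos and Jun were found at high levels in all 4 libraries. Fos measured 343 CPM in dpi35, 137 CPM in dpi25, 235 CPM in PDGFRa-GFP and 284 CPM in hGFAP-GFP. Jun, the usual partner of Fos, measured 370, 230, 356 and 275 CPM in the same order. Both were lowest in the dpi25 tumour. Jund, the family member that is made at all times in many cells, had only 35.0 CPM in dpi25, against 181 CPM in PDGFRa-GFP and 223 CPM in hGFAP-GFP, and had 218 CPM in dpi35. Fosb had 0.43 CPM in dpi25 and 19.3, 12.7 and 13.8 CPM in dpi35, PDGFRa-GFP and hGFAP-GFP. Atf3, a factor of injured and stressed cells, was low in cortex, with 6.49 CPM in PDGFRa-GFP and 0.95 CPM in hGFAP-GFP, below the 41.8 CPM of dpi35 and 14.6 CPM of dpi25.

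Among the other factors, Egr1 is the zinc finger factor of growth factor and activity signals. It measured 145 CPM in dpi35, 280 CPM in dpi25, 612 CPM in PDGFRa-GFP and 695 CPM in hGFAP-GFP. Klf2, a factor of endothelial cells and resting leukocytes, reached 288 CPM in dpi35 and stayed at 8.23, 1.22 and 1.19 CPM in dpi25, PDGFRa-GFP and hGFAP-GFP. Myc, a transcription factor of cell growth, was highest in dpi25 at 89.1 CPM, against 11.3 CPM in PDGFRa-GFP and 10.5 CPM in hGFAP-GFP, with 24.3 CPM in dpi35. Egr3 had 0.12 CPM in dpi35, no UMI in dpi25 (a limit of 0.26 CPM at 3 UMIs) and 0.24 CPM in hGFAP-GFP. Egr1 was thus lowest in dpi35, the library in which Fos and Klf2 were highest.

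Among the chaperones, Hspa8 was abundant and even across the libraries. Hspa8, the constitutive partner of the inducible Hspa1 genes, measured 1142 CPM in dpi35, 893 CPM in dpi25, 1184 CPM in PDGFRa-GFP and 1156 CPM in hGFAP-GFP. The strictly inducible Hspa1a had 51.4 CPM in dpi35 and 3.03, 0.73 and 0.71 CPM in dpi25, PDGFRa-GFP and hGFAP-GFP. Its level in the cortex libraries rested on 6 and 3 UMIs in all. Hspb1, a small chaperone, followed the same order of tumour over cortex at 76.3, 14.4, 0.73 and 1.91 CPM. Hsp90aa1, the inducible form of the cytosolic HSP90 chaperone, ran opposite at 799, 852, 1312 and 2328 CPM.

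The share of cells with a UMI gave the order of the levels for Fos and Egr1 once every cell was thinned to 1000 UMIs, which kept 84.3% of PDGFRa-GFP cells and every cell of the other libraries. Fos was found in 23.4% of thinned dpi35 cells (56.9% unthinned), 11.6% of dpi25 cells (21.3%), 12.4% in the PDGFRa-GFP library (22%) and 16.2% in the hGFAP-GFP library (29.9%). Egr1 was found in 13%, 20.6%, 27.3% and 27.9% of thinned cells in the same libraries (46%, 33.6%, 38.5% and 47.1% unthinned). The unthinned shares put dpi35 near hGFAP-GFP for Egr1, and the thinned shares put it lowest.

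Between the cortex reporters, the members differed little. In PDGFRa-GFP over hGFAP-GFP, 30 members had at least 20 UMIs over both libraries. Of these, 3 were higher past 2-fold (4.85% of all 13555 genes were) and 1 was lower (12.7% of all genes were). The median member had a log2 ratio of -0.02 and the median gene 0.04. The higher ones were Atf3 at log2 2.77 (1.33 to 4.69), Egr2 at 1.85 (0.77 to 3.13) and the survival gene Ier3 at 1.29 (0.60 to 2.04), and the lower one was Ier5 at -1.14 (-1.53 to -0.75). Of 53 Atf3 UMIs in PDGFRa-GFP, 47 came from 6 cells of the microglia- and macrophage-like class. Without neuronal, immune, vascular, ependymal and erythroid classes 1 member, Egr2, was higher, and Ier3 stood at 0.97. No share of all genes is given for that setting. None of the 9 heat shock members tested passed 2-fold. Strain and age change together here and cannot be told apart.

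The dpi25 tumour differed from both cortex libraries in many members, as it did in many genes. The 2 comparisons share the tumour library, and the tumour was digested with another enzyme mix and not sorted. In dpi25 over PDGFRa-GFP, 9 of 34 members tested were higher (16.2% of all genes) and 5 were lower (16.6% of all genes). In dpi25 over hGFAP-GFP, 10 of 34 were higher (17.2% of all genes) and 9 were lower (20.5% of all genes). The median member stood at -0.16 against PDGFRa-GFP and -0.23 against hGFAP-GFP. Myc was higher by log2 2.98 (2.68 to 3.31) over PDGFRa-GFP, and Dusp6, a phosphatase that restrains ERK signalling, by 2.19 (1.98 to 2.40). The lower members were led by Fosb at -4.88 (-6.53 to -3.61) and Jund at -2.37 (-2.53 to -2.21), with Egr1 at -1.13 (-1.19 to -1.07). Thus members of the same families stood on opposite sides: Fosl2 was higher by 4.42 and Fosb was lower.

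The dpi35 library stood above dpi25 in 5 of 7 AP-1 and ATF factors and 4 of 8 regulators. Of 35 members tested, 15 were higher past 2-fold (19.2% of all genes) and 4 were lower (26.2% of all genes). The median member stood at log2 0.51 and the median gene at -0.28. By list, 12 of 23 immediate early members were higher with a median of 1.32, and 3 of 12 heat shock members were higher with a median of 0.22. Klf2 was higher by 5.13 (4.84 to 5.44), Fosb by 5.48, Btg2, an inhibitor of proliferation, by 3.14, Junb by 2.59 and Fos by 1.32 (1.24 to 1.39). Hspa1a was higher by 4.08 (3.60 to 4.61). Myc at -1.88, Hspd1 at -1.43, Nr4a2 at -1.20 and Dnaja1 at -1.10 were lower. The platform, the day and the library change together between these 2, and they cannot be told apart. The share of cells in the microglia- and macrophage-like class also differed, with 2721 of 6054 cells in dpi35 and 346 of 4955 in dpi25. With that class left out of both libraries, a setting chosen after seeing the data, 13 members were higher and 4 lower, and they were in part other genes. No share of all genes is given for this setting. Fos stood at 0.02 and Klf6 at 0.24, neither past 2-fold. Nr4a2 at -0.65 and Dnaja1 at -0.67 were no longer past 2-fold either, while Egr1 at -1.70 and Dusp6 at -1.05 were lower. In the same setting Btg2 stood at 1.08, Junb at 1.48, Fosb at 3.79, Klf2 at 5.04 and Hspa1a at 5.61. Of these, Klf2 moved little and Btg2, Junb and Fosb came out smaller. Without cluster 15 of dpi35, 134 cells described below, Hspa1a stood at 3.47.

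Library levels mix the level per cell with the makeup of the library. Each library was therefore clustered by itself without the members and without other stress genes, and clusters were given a cell class by marker genes. Classes of at least 50 cells are described, and clusters without enough markers keep their number. The members themselves did not enter the grouping. Genes that vary together with them could, so a class may still follow the state in which the members are high. Each class is also 1 group of cells from 1 library. Scrublet marked 125 doublets in dpi35, of which 106 were in the microglia- and macrophage-like class, and 0 to 5 in each Drop-seq library, so doublets there were in effect not removed.

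**Figure D2:**
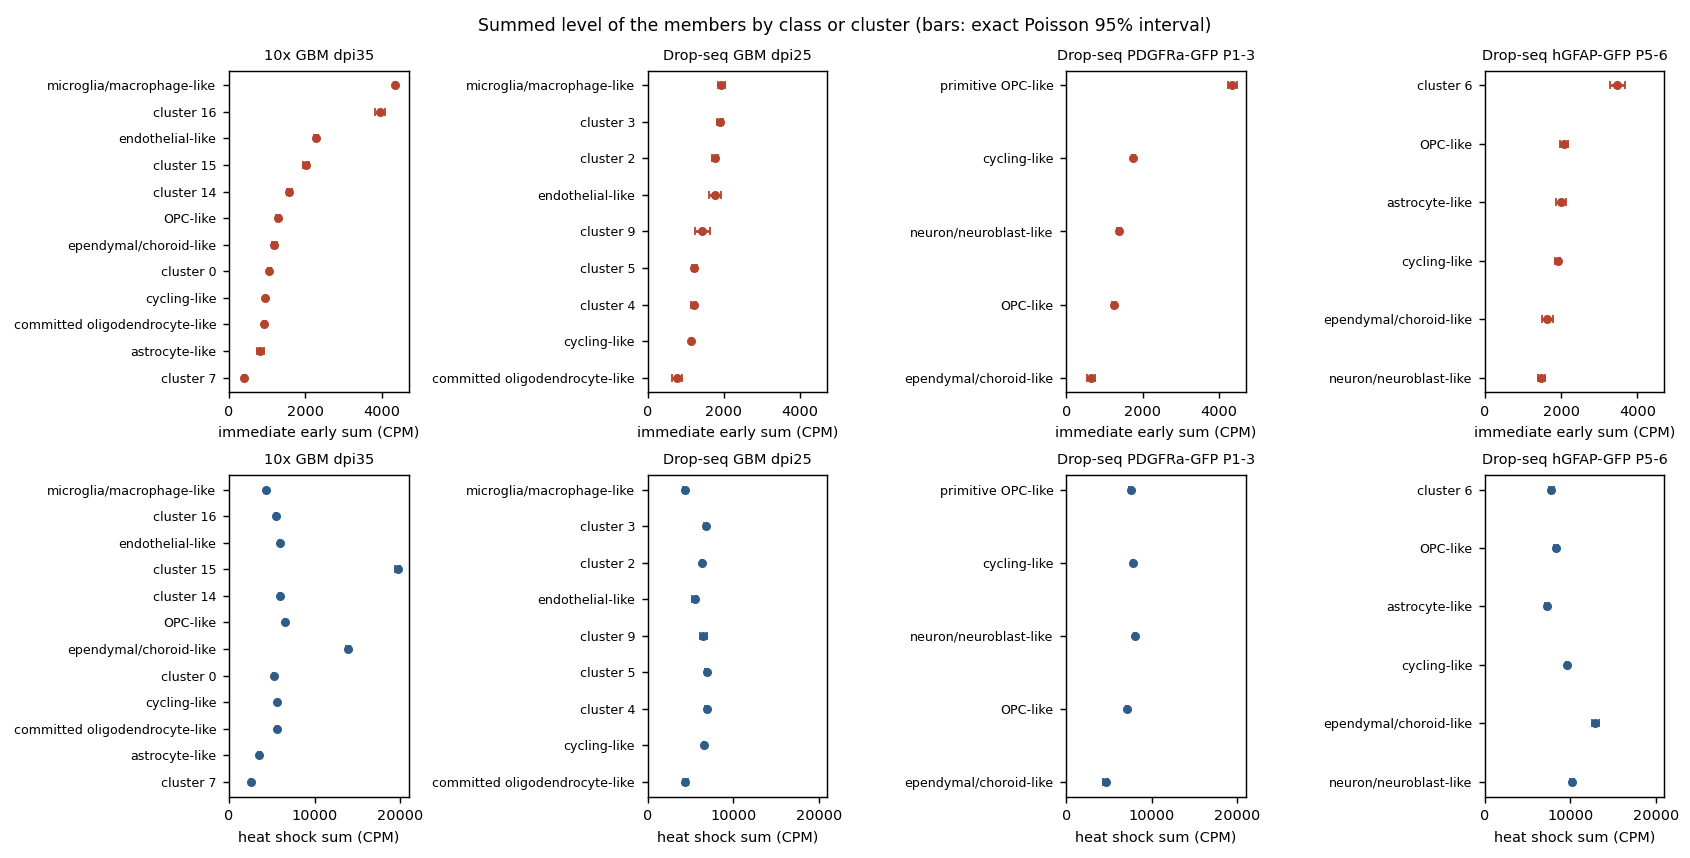
Summed level (CPM) of the immediate early members (upper panels) and the heat shock members (lower panels) in each class of at least 50 cells, for the 4 droplet libraries; lines are exact 95% Poisson intervals. The immediate early sum ran from 649 CPM to 4359 CPM in PDGFRa-GFP and the heat shock sum reached 19699 CPM in cluster 15 of dpi35.

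In the PDGFRa-GFP cortex the immediate early genes were highest in the primitive OPC-like class (516 cells), early oligodendrocyte precursors led by genes such as Olig1, Olig2, Dll1 and Dll3. Their immediate early sum was 4359 CPM (4235 to 4486), against 1761 CPM in cycling cells, 1380 CPM in neuron-like cells, 1243 CPM in OPC-like cells and 649 CPM in ependymal- and choroid-like cells. At a clustering resolution of 0.5 no class of that name was found, and OPC-like cells had the highest sum, 3308 CPM. The heat shock sum was 7530 CPM in the primitive OPC-like class and lay between 7100 and 8015 CPM in the OPC-like, cycling and neuron-like ones. Of 21 immediate early members tested against the rest of the library, 11 were higher past 2-fold (4.31% of all genes) and 2 were lower (12% of all genes), and the median stood at log2 1.46 against -0.01 for all genes. None of 9 heat shock members passed 2-fold in this class, and their median was 0.06.

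The members that made up this pattern came from all 3 immediate early roles. Fos measured 790 CPM in primitive OPC-like cells and 151 CPM in the rest, a log2 ratio of 2.39 (2.26 to 2.52). Egr1 measured 1611 CPM and 462 CPM in the rest (1.80, 1.72 to 1.89). Fos was detected in 33.7% of thinned cells of this class (29 to 38.6) and in 5.21% of neuron-like cells, the lowest share, with median depths of 1701 and 1441.5 UMIs. The shares for Egr1 were 54.4% in the primitive OPC-like class and 3.85% in the ependymal- and choroid-like class, whose cells were deeper at a median of 4703 UMIs. Among the other factors, Klf4 had 20.5 CPM against 2.96 CPM in the rest (2.79), Myc 42 against 6.62 CPM (2.66) and Egr2 25.2 against 4.09 CPM (2.62). Among the regulators, Socs3, which blocks cytokine signalling, had 63.4 CPM against 15.5 CPM (2.03), and Btg2 had 147 CPM against 44.3 CPM (1.74). Of 20 immediate early members ranked over the classes of at least 50 cells, 13 were highest in this one. The share of all genes that were highest in it is not given. A further 46 astrocyte-like cells, too few for a class here, had an immediate early sum of 4565 CPM and 1552 CPM of Fos. The 6 microglia- and macrophage-like cells had a sum of 9641 CPM. Both sums lie above that of the primitive OPC-like class. By the median cell, the immediate early share of UMIs was 0.158% in the astrocyte-like cells, below the 0.232% of the primitive OPC-like class. Its 90th percentiles were 1.47% and 0.978%. The median of the 6 microglia- and macrophage-like cells was 1.09%.

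Other members of the list had their highest level elsewhere in the same library. Jun measured 609 CPM in primitive OPC-like cells and 494 CPM in neuron-like cells, and its ratio to the rest, 0.94 (0.81 to 1.06), did not pass 2-fold. Jund was highest in neuron-like cells at 280 CPM, against 156 CPM in the rest (0.85). Dusp1, a phosphatase of stress kinases, was also highest there at 79.7 CPM, against 30.1 CPM in the rest (1.41, 1.07 to 1.73). Dusp6 at 51 CPM and Nr4a1 at 25.5 CPM were highest in OPC-like cells, both with a ratio to the rest of 1.26. Cycling cells had none of 21 immediate early members higher (6.14% of all genes) and 10 lower (19.2% of all genes). OPC-like cells had 2 higher (14.4% of all genes) and 6 lower (11.3% of all genes). In neuron-like cells 14 of 21 immediate early members were lower (21.1% of all genes) and 1, Dusp1, was higher (7.42% of all genes). Primitive OPC-like cells took 3.84% of their UMIs from mitochondrial genes and the library 3.19%; the part of cell quality in the difference was not tested.

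**Figure D3:**
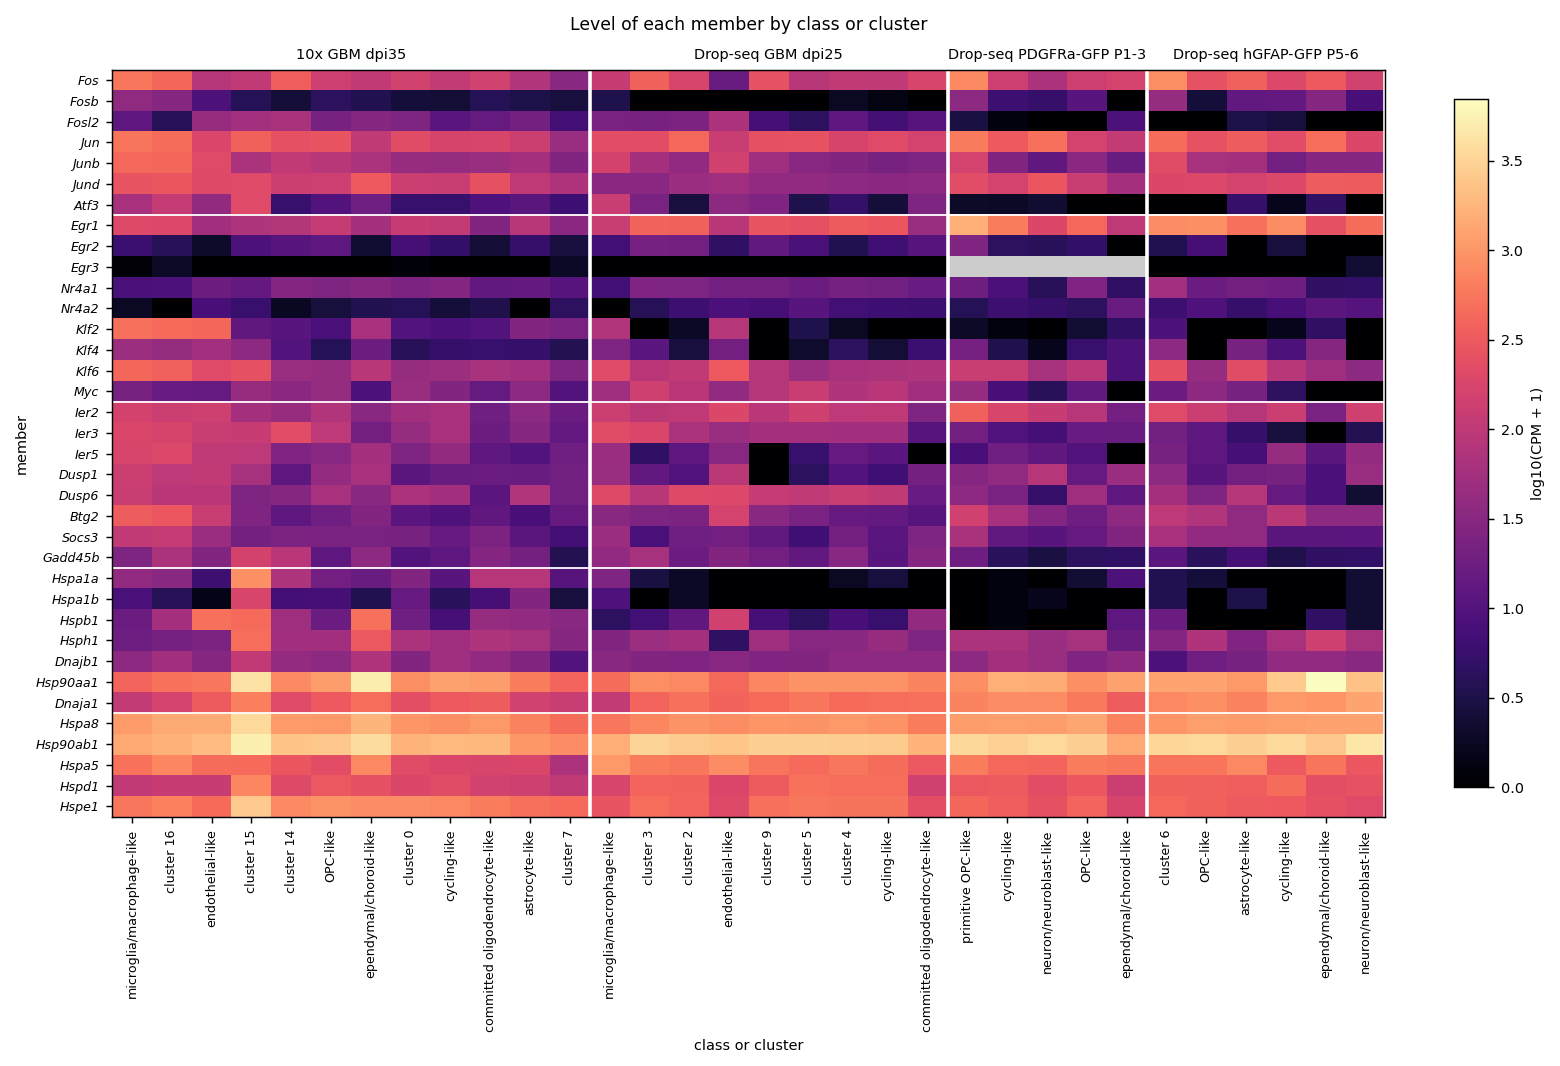
Level of each member (log10 of CPM + 1, colour) in each class of at least 50 cells of the 4 droplet libraries, with classes ordered by their immediate early sum; white lines part the role groups and grey marks Egr3, which was not analysed in PDGFRa-GFP. Members of both sets change between classes. In PDGFRa-GFP, Egr1 ran from 99.2 to 1611 CPM, Hspa8 from 702 to 1332, Hsp90ab1 from 1419 to 3567 and Hspe1 from 168 to 416.

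In the hGFAP-GFP cortex the named classes were close to each other. The immediate early sum was highest in OPC-like cells at 2070 CPM and lowest in neuron-like cells at 1476 CPM, with astrocyte-like cells at 1993 CPM, cycling cells at 1906 CPM and ependymal-like cells at 1638 CPM. Which class was highest changed with the clustering: it was the astrocyte-like one when clustered with all genes (2540 CPM) and at a resolution of 0.5 (2758 CPM). With cells thinned to 1000 UMIs the lowest was the ependymal-like one. Per cell, the immediate early members took a median of 0.085% of UMIs in OPC-like cells and 0.091% in neuron-like cells. The 90th percentiles were 0.591% and 0.319%, so the higher OPC-like sum was not seen in the median cell. The medians were 0.119% in astrocyte-like, 0.123% in cycling and 0.084% in ependymal-like cells. The cells that stood out were cluster 6, with 66 cells and no name, whose leading genes include Gfap, Aqp4, Id1 and Id3. Its immediate early sum was 3479 CPM (3295 to 3670). Of 18 immediate early members, 9 were higher than in the rest (7.24% of all genes) and none was lower (16% of all genes). None of 9 heat shock members was higher and 2, Hsph1 and Dnajb1, were lower. Fos measured 859 CPM in cluster 6 and 226 CPM in the rest (1.93, 1.74 to 2.11), Junb 217 CPM and 32.8 CPM (2.73, 2.31 to 3.14), Klf6 248 CPM and 81.9 CPM (1.60), and Nr4a1 54.3 CPM and 13.7 CPM (1.99). Egr1 did not follow, with 833 CPM against 681 CPM in the rest (0.29). Cluster 6 had 8.43% mitochondrial UMIs, the highest of the classes here, and the library 5.47%; the part of this in the levels was not tested.

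In astrocyte-like cells of this library, Dusp6 measured 80.9 CPM against 17.2 CPM in the rest (2.24, 1.62 to 2.84) and Klf6 215 CPM against 82.4 CPM (1.38), while 4 of 18 immediate early members were higher (13.7% of all genes) and 2 were lower (19.2% of all genes). Hspa5 was the only heat shock member higher in them, at 788 CPM against 390 CPM (1.02, 0.85 to 1.18). In neuron-like cells Dusp1 was again higher, with 44.9 CPM against 18.9 CPM (1.25, 0.60 to 1.87), the only member of 18 higher past 2-fold (9.19% of all genes), and 10 were lower (20.7% of all genes). In OPC-like cells 2 of 18 were higher (8.48% of all genes) and 5 lower (15.7% of all genes), and in cycling cells 1 was higher (6.42% of all genes) and 5 lower (21.8% of all genes). Jund was at 321 CPM in neuron-like cells, against 201 CPM in the rest (0.67), which did not pass 2-fold.

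In the dpi25 tumour, members were higher in the microglia- and macrophage-like class (346 cells) and in the endothelial-like class (84 cells). Klf2 was higher in both. The immediate early sums were 1928 CPM in the myeloid class, 1892 CPM in cluster 3, 1765 CPM in endothelial-like cells, 1143 CPM in cycling cells and 766 CPM in the committed oligodendrocyte-like class. In the myeloid class 9 of 22 immediate early members were higher (13.7% of all genes) and 2 were lower (31.2% of all genes). Atf3 had 124 CPM against 5.80 CPM in the rest (4.42, 3.95 to 4.89), Klf2 75.3 CPM against 2.81 CPM (4.75, 4.10 to 5.42), Junb 159 CPM against 33.8 CPM (2.23), and Ier3 217 CPM against 68.4 CPM (1.66). Fos did not follow, with 118 CPM against 139 CPM in the rest (-0.23, -0.54 to 0.06). Egr1 was lower, at 123 CPM against 292 CPM (-1.25).

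Among its chaperones, Hspa1a stood out with 21 of the 35 UMIs of the library, 24.3 CPM in the myeloid class against 1.31 CPM in the rest (4.21, 3.17 to 5.30). Hspa5 was at 1042 CPM against 521 CPM, a ratio of 1.001 that was just past 2-fold. Dnaja1, a co-chaperone of the Hspa1 type, was lower in the myeloid class at 112 CPM against 475 CPM (-2.08, -2.38 to -1.79). Endothelial-like cells had 9 of 22 immediate early members higher (15% of all genes), led by Klf2 at 81.9 CPM against 6.47 CPM (3.66), Btg2 at 160 CPM against 17.8 CPM (3.17), Dusp1 at 93.1 CPM against 10.7 CPM (3.12) and Fosl2 at 67 CPM against 11.8 CPM (2.51). Their Fos rested on 4 UMIs (14.9 CPM). Hspb1 measured 149 CPM in them and 11.2 CPM in the rest (3.74, 3.18 to 4.26).

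Among tumour cells without a class name, cluster 3 (505 cells), which is led by genes of the hypoxia response, had the most Fos, 376 CPM against 114 CPM in the rest (1.72, 1.56 to 1.89). In that cluster 5 of 22 immediate early members were higher (4.36% of all genes) and 3 were lower (11.7% of all genes). Gadd45b, a stress gene of the DNA damage family, had 58.3 CPM against 18 CPM (1.70), and Ier3 had 182 CPM against 69.3 CPM (1.39). Fos was found in 24.8% of thinned cluster 3 cells, 8.91% of cycling cells and 3.57% of endothelial-like cells, with median depths of 1887, 2124.5 and 2597.5 UMIs. Cycling cells, 2324 of 4955, had 8 of 22 immediate early members lower (12.8% of all genes) and none higher (1.75% of all genes). None of 11 heat shock members was higher in cluster 3 or in cycling cells. Clusters 2, 4, 5 and 9 and the committed oligodendrocyte-like class had 0 to 2 of 22 immediate early members higher, beside 7.05%, 3.46%, 1.12%, 8.9% and 13.4% of all genes. They had 3, 3, 8, 1 and 5 lower, beside 10.2%, 10.5%, 14.2%, 7.34% and 14.4% of all genes.

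In the dpi35 tumour the immediate early sum was highest in the microglia- and macrophage-like class, and close to it in the unnamed cluster 16 (106 cells), led by interferon genes. The 2721 myeloid cells had a sum of 4362 CPM (4336 to 4388) and cluster 16 had 3963 CPM (3841 to 4086), against 2278 CPM in endothelial-like, 955 CPM in cycling and 822 CPM in astrocyte-like cells. In the myeloid class 16 of 23 immediate early members were higher than in the rest (11.7% of all genes) and 3 were lower (41.3% of all genes). Of 12 heat shock members none was higher and 4 were lower, under the share of all genes that were lower, and their median was -0.84 against -0.75 for all genes. Median depth was 7300 UMIs in this class and 6582 in the library. Its share of mitochondrial UMIs was 5.55%, and that of the library 7.02%.

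Fos measured 558 CPM in the myeloid class and 141 CPM in the rest (1.98, 1.93 to 2.04). Fosb, at 35.8 CPM against 3.89 CPM, had the largest ratio of the list (3.20, 2.91 to 3.51). Btg2 had 341 CPM against 42.9 CPM (2.99), Klf2 498 CPM against 92.2 CPM (2.43), Junb 438 CPM against 94.0 CPM (2.22), Klf6 410 CPM against 94.5 CPM (2.12) and Socs3 109 CPM against 26.7 CPM (2.03). Jund, at 272 CPM against 168 CPM (0.70), did not pass 2-fold. Fosl2 (-1.14), Nr4a1 (-1.58) and Nr4a2 (-2.05) were lower in the myeloid class. After thinning, Fos was found in 37% of myeloid cells (35.2 to 38.9) and in 2.50% of astrocyte-like cells, the lowest share, whose median depth was 5085 UMIs. Klf2 was found in 34.3% of myeloid cells, in 32.6% of endothelial-like cells and in 0.39% of OPC-like cells. Klf2 was thus carried by myeloid and endothelial-like cells alike, and Fos was not: endothelial-like cells had 80.3 CPM of Fos against 365 CPM in the rest (-2.18).

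Within the myeloid class the clusters were far apart for Fos. Cluster 2 (635 cells), led by the resident microglia genes P2ry12 and Tmem119, had 1139 CPM of Fos, 1089 CPM of Jun, 1099 CPM of Klf2 and 774 CPM of Btg2. Cluster 4 (336 cells), led by Hmox1 and Gpnmb, had 271 CPM of Fos, 240 CPM of Jun, 192 CPM of Klf2 and 121 CPM of Btg2. Cluster 13 (187 cells), led by the antigen presentation gene Cd74, had 829 CPM of Fos, with the highest Dusp1 (414 CPM) and Ier3 (423 CPM) of these 3 clusters. The other myeloid clusters had Fos levels between 369 and 522 CPM. Jund followed the same order as Fos between cluster 2 and cluster 4, and its level in cluster 2 was 574 CPM.

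The heat shock genes stood apart in cluster 15 of dpi35, 134 cells without a class name that were led by Sqstm1, Tnfrsf12a and Sox11. Their heat shock sum was 19699 CPM (19432 to 19968), against 5349 CPM in the whole library. Of 12 heat shock members, 11 were higher than in the rest (14.3% of all genes) and none was lower (16.9% of all genes), and the median was log2 2.20 against 0.00 for all genes. These cells had no marked doublet, a median of 6554.5 UMIs and 5.36% mitochondrial UMIs, close to the 6582 UMIs and under the 7.02% of the library.

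Hspa1a measured 899 CPM in cluster 15 and 33.5 CPM in the rest, a log2 ratio of 4.75 (4.63 to 4.86). These 134 cells held 950 of the 2630 Hspa1a UMIs of the library. After thinning, Hspa1a was found in 35.1% of them (27 to 43.8), against 2.84% in the library, 0.62% in cycling cells and 0.38% in cluster 7. Hspa1b had 177 CPM against 6.74 CPM (4.71), Hsph1, a helper of nucleotide exchange, 477 CPM against 37.9 CPM (3.65), Hspb1 445 CPM against 68.5 CPM (2.70), and Hsp90aa1 4257 CPM against 726 CPM (2.55). The mitochondrial pair, Hspd1 with 741 CPM against 145 CPM (2.36) and Hspe1 with 2632 CPM against 643 CPM (2.03), moved with them. So did the constitutive Hsp90ab1 (1.69) and Hspa8 (1.68). Hspa5 was the member that did not pass 2-fold, with 452 CPM against 400 CPM (0.18, 0.04 to 0.31).

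The immediate early members of cluster 15 were split. Atf3 had 211 CPM against 38.2 CPM in the rest (2.46, 2.26 to 2.67) and Gadd45b 160 CPM against 23.4 CPM (2.77, 2.53 to 3.01), and 4 of 23 members were higher in all (14.3% of all genes). Fos was lower, at 108 CPM against 348 CPM (-1.69), as were Klf2 at 12.3 CPM against 294 CPM (-4.58) and Btg2 at 25.5 CPM against 190 CPM (-2.89), and 9 of 23 were lower (16.9% of all genes). The rest of this library is rich in myeloid cells, which carry much of its Fos, Klf2 and Btg2. Jun was at 372 CPM against 370 CPM, and the interval of its ratio included 0 (0.01, -0.14 to 0.15). Of the other cytosolic chaperones, 16 of 23 were higher in cluster 15 and none was lower, with a median of 1.08. Of 15 genes of the endoplasmic reticulum stress list, 3 were higher and 6 lower.

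**Figure D4:**
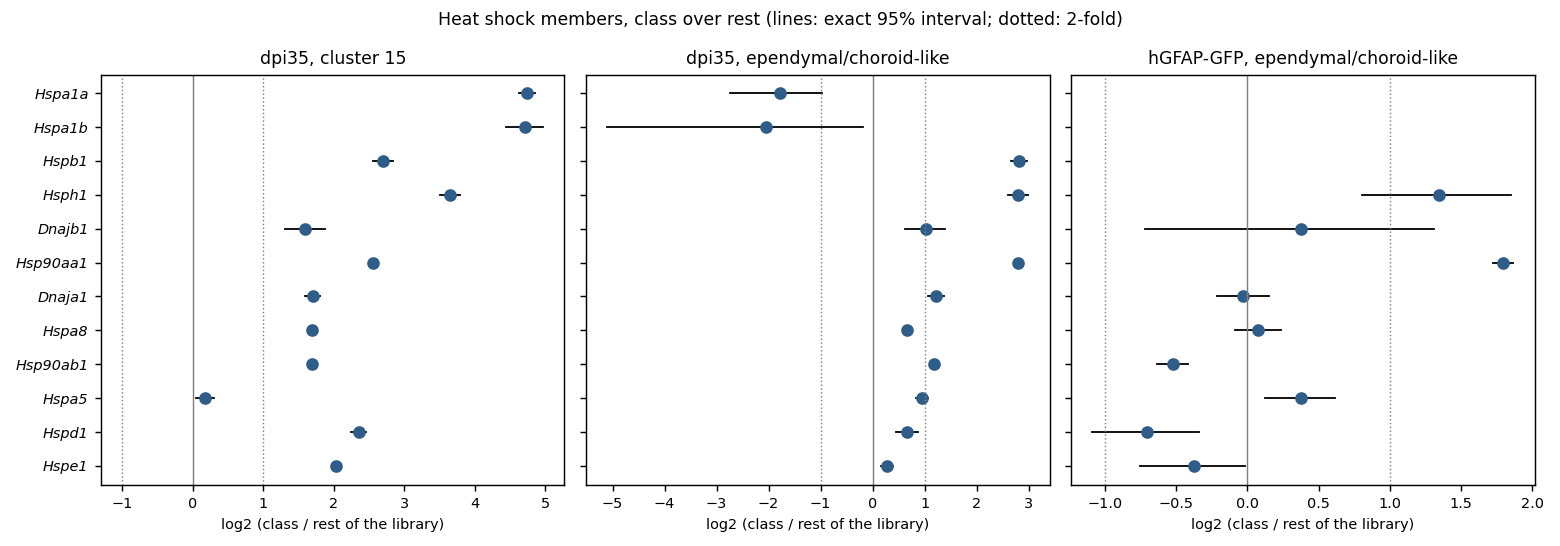
Log2 ratio of each heat shock member, class over the rest of its library, in cluster 15 of dpi35, ependymal-like cells of dpi35 and ependymal-like cells of hGFAP-GFP; lines are exact 95% intervals, dotted lines mark 2-fold, and Hspa1a, Hspa1b and Hspb1 have no point in hGFAP-GFP, where they had under 20 UMIs. In cluster 15 every member but Hspa5 lies beyond 2-fold, while in ependymal-like cells of dpi35 Hspa1a lies at -1.79 and Hsp90aa1 at 2.79.

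Ependymal-like cells, which line the ventricles and are led here by genes of motile cilia, had another chaperone pattern. In dpi35 (99 cells) their heat shock sum was 13889 CPM (13631 to 14150), the highest among named classes, and 6 of 12 heat shock members were higher (23.5% of all genes) and 2 were lower (17.7% of all genes). Hsp90aa1 measured 5044 CPM against 732 CPM in the rest (2.79, 2.74 to 2.83), Hspb1 493 CPM against 69.7 CPM (2.82) and Hsph1 300 CPM against 43 CPM (2.80). Hspa1a was lower, with 15.1 CPM against 51.9 CPM (-1.79, -2.74 to -0.98). Hspa1a and Hsp90aa1, both inducible by heat, thus stood on opposite sides in these cells. Among immediate early members 15 of 23 were lower and 1 was higher.

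The hGFAP-GFP cortex held a like class of 55 ependymal-like cells, with a heat shock sum of 12915 CPM (12491 to 13350), again the highest of its library. The cells differed among themselves: per cell, the heat shock members took a median of 0.631% of UMIs, the lowest of the classes here, and 2.67% at the 90th percentile. At a clustering resolution of 2 the neuron-like class had the highest sum. Of 9 heat shock members, 2 were higher (18.9% of all genes) and none was lower (14.4% of all genes). They were Hsp90aa1, with 6965 CPM against 2007 CPM (1.80, 1.72 to 1.87), and Hsph1, with 140 CPM against 55 CPM (1.35, 0.81 to 1.85). Hsp90aa1 was found in 69.1% of these cells after thinning and in 88.8% of cycling cells, whose level was 2577 CPM, so shares and levels do not give the same order. In the PDGFRa-GFP library the class of that name (53 cells) is led by the choroid plexus genes Ttr and Folr1 instead, and its heat shock sum was the lowest there at 4594 CPM. No heat shock member was higher in it and 5 of 9 were lower (32.4% of all genes).

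Cells rich in mitochondrial UMIs in dpi35 had the least of both gene sets when given as CPM. Cluster 7 (264 cells) took 39.9% of its UMIs from mitochondrial genes, and its sums were 403 CPM for the immediate early and 2504 CPM for the heat shock members. There, 21 of 23 immediate early members were lower (39.9% of all genes). Astrocyte-like cells, with 22.9% mitochondrial UMIs, had 822 CPM and 3530 CPM. Mitochondrial UMIs are part of the total, so a high share of them by itself lowers the CPM of other genes. Committed oligodendrocyte-like cells had an immediate early sum of 922 CPM and cycling cells 955 CPM, with 6.29% and 6.02% mitochondrial UMIs. The order of these classes without mitochondrial UMIs is not given. The part of cell quality in these levels was not tested. Among other classes of dpi35, cluster 14 (182 cells), led by hypoxia genes, had 4 of 23 immediate early members higher (11.2% of all genes) and 13 lower (16.3% of all genes); its Fosl2 was at 62.4 CPM (1.88 over the rest) and its Gadd45b at 91.3 CPM (1.90). Cluster 16, compared with a rest that holds the myeloid class, had 2 higher (5.73% of all genes) and 1 lower (23.5% of all genes), with 421 CPM of Fos and 451 CPM of Klf2. OPC-like, cycling, astrocyte-like and cluster 0 cells had 0 or 1 higher, beside 10.8%, 17%, 17.5% and 16% of all genes, and 12 to 15 lower, beside 16.6%, 21%, 13.7% and 20% of all genes.

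Matched classes showed which differences between libraries were also present within a class. The PDGFRa-GFP over hGFAP-GFP medians over members were -0.33 in OPC-like, -0.22 in neuron-like and 0.02 in cycling cells, against 0.18, 0.08 and 0.11 for all genes. The OPC-like median turned to 0.44 at a clustering resolution of 0.5, at which no primitive OPC-like class was named. In OPC-like cells 2 of 24 members were higher in PDGFRa-GFP (10.5% of all genes) and 4 lower (4.9% of all genes). In neuron-like cells 1 of 20 was higher (7.98% of all genes) and 4 lower (8.23% of all genes), and in cycling cells 1 of 27 was higher (5.93% of all genes) and 4 lower (7.12% of all genes). In ependymal- and choroid-like cells, which are of different clusters in the 2 libraries, none of 12 was higher (8.17% of all genes) and 6 were lower (39.6% of all genes). In cycling cells 7 of 29 members were higher in dpi25 than in PDGFRa-GFP (18.6% of all genes) and 4 were lower (14.2% of all genes). Against cycling cells of hGFAP-GFP, 7 of 31 were higher in dpi25 (22.5% of all genes) and 9 were lower (15.6% of all genes). In dpi35 over dpi25, 13 of 35 members were higher within the microglia- and macrophage-like class (8.79% of all genes) and 3 were lower (25.2% of all genes). The immediate early median there was 0.997, just under 2-fold, against -0.36 for all genes. Within cycling cells of the tumours, 7 of 33 members were higher in dpi35 (13.2% of all genes) and 5 were lower (16.5% of all genes). In endothelial-like cells 10 of 33 were higher in dpi35 (12.5% of all genes) and 2 lower (18.9% of all genes), and in committed oligodendrocyte-like cells 4 of 30 were higher (14.2% of all genes) and 2 lower (18.6% of all genes).

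In C1 cells of the PDGFRa-GFP cortex, most immediate early members tested were higher at P6 than at P3 when compared by their means. Values are TPM per cell from 1 table, and ratios compare means over cells with a pseudocount of 1. Of 30 members with a mean of at least 1 TPM, 14 were higher past 2-fold (33.9% of all 15737 genes) and 1 was lower (20.5% of all genes). All of the higher ones were immediate early, 14 of 21, with a median of log2 2.04 against 0.32 for all genes; none of 9 heat shock members was higher. On the mean of log2 values 7 members were higher, and with a pseudocount of 10 there were 8, with Fos and Egr1 among both. The share of all genes is not given for these settings. Egr1 averaged 1399 TPM at P6, with a median of 1217 and a highest cell of 5002, and 283 TPM at P3, with a median of 16.1 and a highest cell of 2014. At least 10 TPM of Egr1 was found in 77.4% of P6 cells (63.8 to 87.7) and in 53.3% of P3 cells. Fos averaged 536 TPM at P6, with a median of 87.7 and a highest cell of 2976, and 161 TPM at P3, with a median of 0.14 and a highest cell of 2352. Both distributions overlapped, since each set held cells at or near 0. Jun was alike in mean, with 43.5 TPM at P6 and 39.6 TPM at P3 (0.13).

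**Figure D5:**
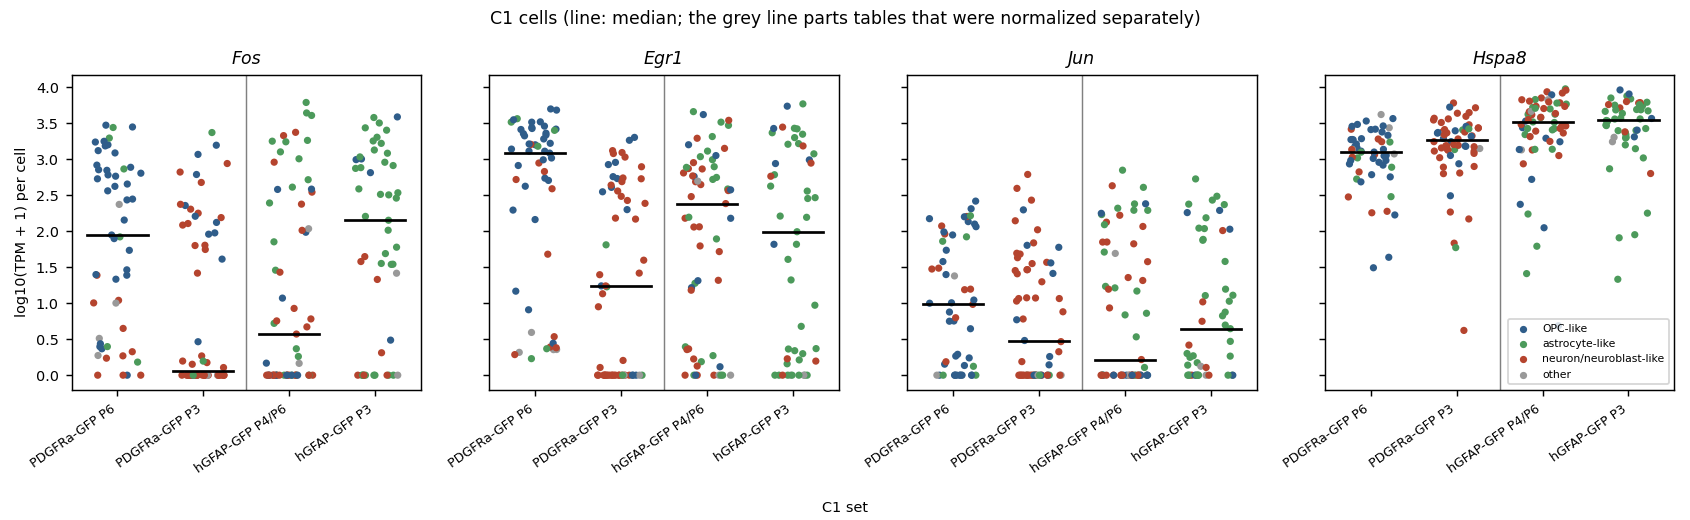
Level of Fos, Egr1, Jun and Hspa8 (log10 of TPM + 1) in each C1 cell of the 4 sets, coloured by class, with a line at the median; the grey line parts the 2 tables, which are not compared with each other. Fos and Egr1 spread widely within every set, from cells at or near 0 to cells in the upper part of the axis, and the median of Egr1 is 1217 TPM at P6 and 16.1 TPM at P3 in PDGFRa-GFP cells.

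The makeup of the C1 sets differed too. OPC-like cells were 33 of 53 at P6 and 13 of 60 at P3, neuron-like cells were 10 and 41, and a median cell had 5591 genes at P6 and 4124 at P3. Within OPC-like cells, Fos averaged 684 TPM at P6 and 315 TPM at P3, and Egr1 averaged 1789 TPM at P6 and 591 TPM at P3. Within neuron-like cells Fos averaged 4.87 TPM at P6 and 78.9 TPM at P3. By the mean, the difference in Fos therefore kept its direction in OPC-like cells and not in neuron-like cells. The neuron-like mean of Fos at P3 rested largely on a few cells, the highest at 872, 664 and 475 TPM, while most were at 0. Egr1 was higher at P6 by the mean in neuron-like cells too. Its highest neuron-like cell had 1608 TPM at P6 and 1317 TPM at P3. Hspa8 averaged 1467 TPM at P6 and 2055 TPM at P3 (-0.49), and Hsp90aa1 averaged 738 TPM at P6 and 758 TPM at P3 (-0.04).

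In C1 cells of the hGFAP-GFP cortex, P4/P6 over P3 gave 9 of 32 members higher (25.7% of all 12564 genes) and 4 lower (26.1% of all genes), all of them immediate early. The median member stood at 0.13 and the median gene at 0.02. Fos averaged 503 TPM at P4/P6 and 685 TPM at P3 (-0.44), and was at 10 TPM or more in 41% of P4/P6 cells and 71.4% of P3 cells. Ier2, an early response gene, averaged 117 TPM at P4/P6 and 18.1 TPM at P3 (2.63), in 39.3% and 20.4% of cells. Ier3 averaged 59.7 TPM at P4/P6, of which 1 cell held 3642 TPM, and 0.15 TPM at P3; without the highest cell of each set its ratio was -0.048. On the mean of log2 values 2 members were higher and 2 lower, with no share of all genes given beside them. Astrocyte-like cells were 21 of 61 at P4/P6 and 35 of 49 at P3. Of these, 6 at P4/P6 and 1 at P3 lay near the cut for the class name. Within astrocyte-like cells Fos averaged 1121 TPM at P4/P6 and 768 TPM at P3, by the mean the other direction from the whole sets. The P4/P6 mean held cells of 6158, 4403 and 4064 TPM. The middle astrocyte-like cell had 246 TPM of Fos at P4/P6 and 319 TPM at P3, the same direction as the whole sets. None of 9 heat shock members passed 2-fold. Hspa1a and Hspb1 were listed at 0 in every C1 cell of both tables.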

How the data were processed

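Single-cell RNA was measured in 4 droplet libraries and 4 sets of C1 cells, and open chromatin in a pooled peak list. The authors aligned Drop-seq reads with STAR to mm10 and ran Cell Ranger for the 10x library and RSEM for C1 cells, per the submitters' processing notes. The 10x file holds UMI counts as deposited by the authors. The Drop-seq tables were deposited by the authors as a scaled signal of 10000 per cell, and dividing by the smallest value of each cell gave whole UMIs within 0.1 for at least 99% of values in 100% of cells. C1 values are TPM as deposited by the authors, in 2 tables that were not compared with each other. The peaks were called on pooled samples by the authors (MACS2 2.12, per the submitters' processing notes, which name the builds mm10 and rn5), and the fold of each of 93170 peaks is the authors' own. Columns of per-sample values that were left out numbered 0.

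Cells with at least 200 genes were kept. Each library was clustered by itself with the members and other stress genes left out (Python 3.11.15, scanpy 1.11.5, leidenalg 0.10.2; 2000 variable genes, 30 components, 15 neighbours, resolution 1). A cluster was named when at least 3 markers of a class stood among its 50 leading genes with 1 or more among its first 10, or 6 with none there; names are "-like". Scrublet doublets were kept and left out as an alternative. UMIs were summed per library or class, ratios were taken on CPM, a count of 0 was set to 3 UMIs, and a gene was called past 2-fold with at least 20 summed UMIs (C1: mean of at least 1 TPM, pseudocount 1). Counting intervals were tested on simulated data. The study states 2000 hGFAP-GFP and 6796 dpi25 cells, of which 815 and 4955 are in the tables. Members and lists were chosen with earlier results of these data known. All members could be named, with those past 2-fold given by size within each role; leading genes of clusters, and contrasts such as the members of cluster 15, were named after their values were seen. The closing text gives what the alternatives changed.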

Additional observations from a re-analysis of the deposited data

How the results depend on the processing

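No paired analysis was possible because the numbers in the labels name C1 wells and single libraries, not animals, and no replicates could be left out. Between cortex libraries, members higher numbered 6 at 1.5-fold and 1 without neuronal, immune, vascular, ependymal and erythroid classes (3 as reported); members lower numbered 3 with no minimum of UMIs and 4 at 1.5-fold (1 as reported). For dpi25 over PDGFRa-GFP, 10 were lower at 1.5-fold. For dpi35 over dpi25, 2 were lower with the total taken without mitochondrial, ribosomal protein, haemoglobin and Ttr UMIs, and 7 at 1.5-fold. The log2 ratio of the highest to the lowest named class moved as follows, and some of these ratios are between other classes than those reported. In dpi35 the lowest was the astrocyte-like class, whose CPM is lowered by its many mitochondrial UMIs. For the immediate early sum it was 2.75 in PDGFRa-GFP as reported, 3.47 when clustered with all genes, and 2.35 (OPC-like highest) and 3.12 at resolutions 0.5 and 2. It was 0.49 in hGFAP-GFP, and 0.83, 0.90 (astrocyte-like highest in both) and 0.70 under the same settings; 1.33 in dpi25 and 0.88 at resolution 2; 2.41 in dpi35, 3.38 at resolution 0.5 and 2.64 at 1000 UMIs per cell. For the heat shock sum it was 0.80 in PDGFRa-GFP and 0.96 at 1000 UMIs; 0.84 in hGFAP-GFP, and 0.77, 0.57 (neuron-like highest) and 0.53 at resolutions 0.5 and 2 and at 1000 UMIs; 0.61 in dpi25 and 0.52 at resolution 2; 1.98 in dpi35, 1.82 with all genes, and 2.53 and 1.76 at resolutions 0.5 and 2. The matched median in OPC-like cells of the cortex libraries was -0.33 and became 0.44 at resolution 0.5, and that of committed oligodendrocyte-like tumour cells was 0.01 and became 0.36 at 1000 UMIs. In C1 PDGFRa-GFP cells, members higher numbered 7 on the mean of log2 values and 8 with a pseudocount of 10 (14 as reported), and members lower numbered 0 under both and 2 at 1.5-fold. In C1 hGFAP-GFP cells, members higher numbered 2 and 4 and members lower 2 and 0 under the same settings. Ier3 there stood at -0.048 without the highest cell of each set. The cause was not tested in any of these, and no share of all genes is given beside the counts under these settings. Of the summary values, 180 stayed within their limits under an alternative and 35 moved; of values for single members, 1075 stayed, 288 moved and 1 changed sign.

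With 1 library or set in each group, no spread between animals can be given. Drop-seq depth limits members under 20 UMIs, among them Hspa1a and Hspb1 in cortex. Class names were rebuilt from markers, so a class can differ from the study's own.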

Other observations

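Genes outside the members were taken from lists of related genes. Among 24 other early response genes tested in dpi35 over dpi25, 6 were higher (19.2% of all genes) and 2 lower (26.2% of all genes), with a median of -0.02 against -0.28 for all genes. In dpi25 over PDGFRa-GFP, 10 of 23 such genes were higher (16.2% of all genes) and 3 were lower (16.6% of all genes), with the matrix gene Ctgf at log2 5.41 (4.03 to 7.30) and the factor Cebpb at 4.38 (3.43 to 5.53). Metallothioneins, the metal-binding stress proteins, were lower in PDGFRa-GFP than in hGFAP-GFP in 3 of 3 genes (12.7% of all genes). Mt1 measured 133 CPM in PDGFRa-GFP and 452 CPM in hGFAP-GFP, and it measured 1533 CPM in dpi25. Of 23 other cytosolic chaperones, none was higher in dpi35 than in dpi25 and 5 were lower, a share under that of all genes. Hsp90b1, the endoplasmic reticulum member of the HSP90 family, measured 1842 CPM in dpi25, 753 CPM in PDGFRa-GFP and 828 CPM in hGFAP-GFP.

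The genes whose level per cell was most like that of Fos differed between libraries. Pearson correlations were taken across cells of 1 library after thinning to 1000 UMIs, so the points share a library, and they are weak, sparse values given as a description. In PDGFRa-GFP the first genes were Egr1 (0.33), Ier2 (0.23) and Olig1 (0.18). In hGFAP-GFP they were Egr1 (0.34), Prm1 (0.27) and Id1 (0.24). In dpi25 they were Vegfa and Bnip3 (0.13 each) and Mt1 (0.12). In dpi35 they were Btg2 (0.33), the microglial protease gene Ctss (0.32) and Klf2 (0.32). Hspa1a was found in under 5% of thinned cells in every library and has no such list.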
